A study of Mus musculus with 16 samples.

Results

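The coat of caveolae was followed through 6 genes, Cav1, Cav2, Cavin1, Cavin2, Cavin3 and Ehd2, of the 33072 genes in the deposited table. The mouse symbols were matched to the Ensembl identifiers of that table. The set was chosen from measured values of these data, since Cavin2 was lower with CIX than with vehicle in 67NR cells, so that this treatment difference is given below as a description without a test, for all 6 genes. Because the 67NR values of Cavin2 entered that choice, its difference between the cell lines is likewise given without a test.

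RNA had been sequenced from 4T1 and 67NR cells, mammary carcinoma lines from BALB/c mice, of which the labels call 4T1 metastatic and 67NR non-metastatic. Both lines arose from a single spontaneous tumor and each is a cultured line. Cells were kept for 24 h in serum-containing medium with vehicle or with 15 µM CIX, an inhibitor of the cytosolic phospholipase cPLA2α, which releases arachidonic acid from membrane phospholipids. Each of the 4 groups, namely 4T1 with vehicle, 4T1 with CIX, 67NR with vehicle and 67NR with CIX, held 4 biological replicates, 16 samples in all, here named by the numbers in their titles. Total estimated counts per sample lay between 21715700 and 29450629.

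Caveolae are small flask-shaped pits of the plasma membrane, rich in cholesterol, sphingolipids and phosphatidylserine. Caveolins are inserted into the inner leaflet of the membrane, cavins form a peripheral coat around them, and the ATPase Ehd2 sits at the neck and holds the pit at the surface. In the mammary gland, caveolae are known from adipocytes, endothelium, fibroblasts and myoepithelial cells, and caveolin-1 has been studied in breast cancer both as a growth suppressor and in relation to metastasis.

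On GRCm38, Cav2 (ENSMUSG00000000058, chromosome 6, 17281185 to 17289115) and Cav1 (ENSMUSG00000007655, chromosome 6, 17306335 to 17341452) are neighbours on the plus strand, separated by 17219 bases. Cavin1 (ENSMUSG00000004044) lies on the minus strand of chromosome 11 from 100956733 to 100970887, and Cavin2 (ENSMUSG00000045954) on the plus strand of chromosome 1 from 51289126 to 51302960. Cavin3 (ENSMUSG00000037060, 105480083 to 105482300) and Ehd2 (ENSMUSG00000074364, 15946958 to 15967567) are both on the minus strand of chromosome 7. The annotation places an antisense gene, Gm15581, across parts of Cav1 and Cav2, another, 9330175M20Rik, across part of Cavin2, and a gene still to be experimentally verified, Gm45667, on the strand opposite to Cavin3 where they overlap. The library kit marks strand, but whether the quantification used it is not given in the sources used here. Of the 31-base words in their transcripts, 0 were shared with another gene for the caveolins and the 3 cavins, and 0.508% for Ehd2.

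RefSeq promoter windows matched 5 of the 6 genes. The 250 bases before the start site are shown for Cav1, Cav2 and Cavin2, the genes with an unadjusted p below 0.05 for CIX against vehicle in 4T1 cells, written 5′ to 3′ with motif matches in capitals. The windows are chr6:17306085-17306334 for Cav1, chr6:17280935-17281184 for Cav2 and chr1:51288876-51289125 for Cavin2, all on the plus strand of GRCm38.p6.
Cav1: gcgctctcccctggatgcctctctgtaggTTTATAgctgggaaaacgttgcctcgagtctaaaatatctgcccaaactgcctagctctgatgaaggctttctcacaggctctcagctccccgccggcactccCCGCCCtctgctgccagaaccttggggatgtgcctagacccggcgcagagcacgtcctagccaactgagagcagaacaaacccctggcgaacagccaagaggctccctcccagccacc
Cav2: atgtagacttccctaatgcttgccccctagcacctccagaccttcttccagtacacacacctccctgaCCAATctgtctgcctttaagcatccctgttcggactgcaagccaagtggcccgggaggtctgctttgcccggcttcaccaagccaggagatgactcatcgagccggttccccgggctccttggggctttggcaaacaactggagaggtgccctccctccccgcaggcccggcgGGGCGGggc
Cavin2: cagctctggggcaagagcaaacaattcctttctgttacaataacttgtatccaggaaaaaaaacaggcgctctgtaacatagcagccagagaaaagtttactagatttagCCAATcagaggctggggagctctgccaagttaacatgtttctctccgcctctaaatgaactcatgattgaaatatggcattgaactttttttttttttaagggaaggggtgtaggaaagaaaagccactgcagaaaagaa
Capitals mark the GC box (GGGCGG, found in 32.7% of all 32851 promoter windows of this length), the CCAAT box (CCAAT, 33.8%) and the TATA box (TATAAA, 12.4%), on either strand. The Cav1 window held a GC box and a TATA box, the Cav2 window a CCAAT box and a GC box, and the Cavin2 window a CCAAT box. A second RefSeq window of Cav1, chr6:17307390-17307639, held none of the motifs searched. The TEAD motif (GGAATG, 12.6% of windows), the E-box (CACGTG, 6.02%), the CRE (TGACGTCA, 1.55%) and the sterol regulatory element (TCACNCCAC, 1.05%) had no match in these windows. Among the windows not shown, those of Cavin1 held a TEAD motif, a GC box and a CCAAT box. That of Ehd2 held a GC box and a CCAAT box. Cavin2 had the lowest GC content of the matched genes, 40.4% with 2 CpG dinucleotides, against 52.4% and 6 in the median window, while the other matched genes had between 58.0% and 67.6% and 10 to 12 CpG.

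Of the 6 genes, Cav1 had the largest fold difference between the vehicle groups of the lines and Cav2 the smallest. Cav1 encodes the main structural caveolin, without which caveolae do not form in non-muscle cells. On the CPM scale (counts relative to the library total after TMM normalization), its level in 4T1 cells with vehicle was 9.74, 19.4, 21.4 and 15.0 in replicates 3, 7, 11 and 15, and in 4T1 cells with CIX 31.6, 39.9, 43.1 and 47.7 in replicates 4, 8, 12 and 16. In 67NR cells it was 213.2, 185.2, 198.2 and 228.2 with vehicle (replicates 1, 5, 9 and 13) and 213.5, 184.2, 180.8 and 177.1 with CIX (replicates 2, 6, 10 and 14). All 4T1 samples thus lay below all 67NR samples, and within 4T1 the CIX samples lay above the vehicle samples without overlap.

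Cav2 encodes the partner caveolin, which assembles with caveolin-1 and needs it to reach the cell surface. Its level in 4T1 cells was 35.5, 40.8, 50.6 and 43.3 CPM with vehicle and 53.5, 45.1, 54.2 and 57.2 CPM with CIX. The 67NR samples held 84.9, 85.7, 89.5 and 95.2 CPM with vehicle and 94.0, 86.1, 81.0 and 77.1 CPM with CIX. The lines did not overlap, whereas the treatments overlapped within each line.

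Among the cavins, Cavin1 encodes the coat protein required for caveola formation in all tissues. In 4T1 cells it was measured at 211.5, 153.7, 171.0 and 180.2 CPM with vehicle and at 295.0, 178.2, 151.8 and 157.4 CPM with CIX. In 67NR cells the values were 510.7, 513.8, 487.6 and 449.2 CPM with vehicle and 429.5, 421.9, 429.2 and 418.5 CPM with CIX. Here the 67NR samples were above all 4T1 samples, and their CIX samples lay just below their vehicle samples.

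Cavin2 encodes a phosphatidylserine-binding cavin that also binds protein kinase C and bends membranes, and it was the lowest of the 6 genes per transcript length in each group. Its level in 4T1 cells was 7.97, 14.9, 19.1 and 14.2 CPM with vehicle and 17.9, 25.3, 29.0 and 23.9 CPM with CIX. In 67NR cells it was 54.7, 57.4, 54.1 and 47.1 CPM with vehicle and 26.8, 27.0, 26.0 and 24.6 CPM with CIX. The CIX samples of both lines lay in the same range and below all vehicle samples of 67NR, while 3 of the 4 CIX samples of 4T1 were above all its vehicle samples.

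Cavin3 encodes a smaller cavin, likewise a binding partner of protein kinase C. It stood at 101.0, 63.9, 74.7 and 81.0 CPM in 4T1 cells with vehicle and at 89.2, 51.4, 57.5 and 55.5 CPM with CIX. The 67NR samples had 328.4, 387.4, 339.5 and 295.9 CPM with vehicle and 357.1, 364.0, 345.7 and 367.6 CPM with CIX. The treatments overlapped in both lines, and the 67NR samples were all above the 4T1 samples.

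Ehd2, the ATPase of the caveola neck, was at 138.5, 102.7, 62.6 and 114.7 CPM in 4T1 cells with vehicle and at 186.1, 97.7, 70.7 and 113.7 CPM with CIX. In 67NR cells it was at 343.5, 347.2, 360.3 and 326.2 CPM with vehicle and at 367.6, 309.4, 338.4 and 310.3 CPM with CIX. Its spread in 4T1 cells was wide, with a coefficient of variation of 42.1% with CIX and 30.3% with vehicle, against 8.34% and 4.09% in 67NR cells. The smallest estimated count behind any of these values was 193, for Cavin2 in replicate 3, while 3 counts, taken as the floor, correspond to between 0.102 and 0.138 CPM and cover counting error only.

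**Figure D1:**
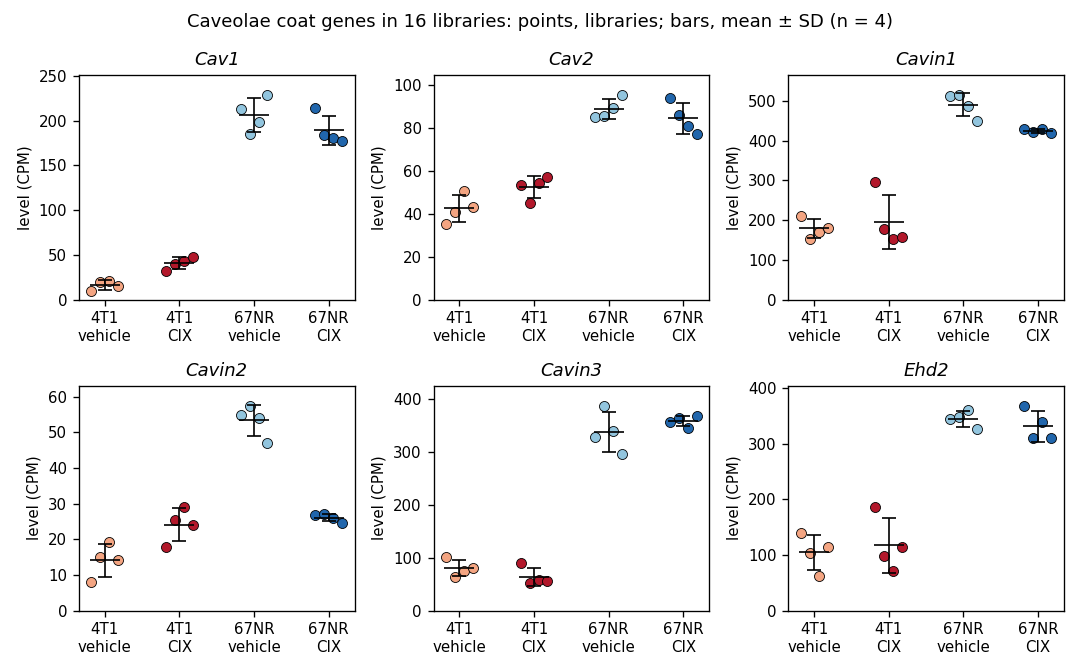
Level in CPM of each gene (vertical axes, starting at 0) in the 4 groups, where points are samples in the order of their numbers and bars give the mean ± SD (n = 4). The 4T1 samples lie below the 67NR samples in each panel except Cavin2, where the CIX samples of 67NR (24.6 to 27.0 CPM) fall among those of 4T1 (17.9 to 29.0 CPM).

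The first comparison asked whether inhibition of cPLA2α changed the coat genes of the metastatic line. Cav1 was 2.54-fold higher with CIX in 4T1 cells, from 16.4 ± 5.18 to 40.6 ± 6.79 CPM (SD, n = 4), a log2 fold change of 1.34 (SE 0.23). Its adjusted p of 0.00175 by limma-voom did not pass the threshold of 0.001, although the CIX samples lay wholly above the vehicle samples, as in 21.2% of all genes tested, for which the two-sided exact permutation test gives p = 0.0286, the smallest possible with 4 against 4. Cavin2 was 1.75-fold higher, from 14.0 ± 4.61 to 24.0 ± 4.61 CPM (log2 fold change 0.81, SE 0.25, adjusted p 0.0279), and its groups overlapped. Cav2 had a log2 fold change of 0.30 (SE 0.13, adjusted p 0.0932). Thus 0 of the 6 genes passed 0.001 by limma-voom, where 1084 of 11676 genes (9.28%) did, and 3 of them, Cav1, Cav2 and Cavin2, had an unadjusted p below 0.05, as had 51.1% of all genes. At an adjusted p of 0.05 the genes called were 2, Cav1 and Cavin2, with 42.7% of all genes called, but Cavin2 missed 0.05 in 4 of the 8 fits that left out 1 sample, without replicate 8, 12, 15 or 16 (adjusted p 0.0530 to 0.0706). The edgeR quasi-likelihood test called 0 of the 6 at 0.001, and DESeq2 called 1, Cav1 (log2 fold change 1.28, adjusted p 1.40e-06), with 26.5% of the genes it tested called in either direction and 14.0% called higher. Cav1 was also called by limma-voom in a common fit of all 16 samples, with sample quality weights, and with a block of successive title numbers (adjusted p 0.000928), which the labels do not give and which was added after the values were seen.

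The remaining coat genes of 4T1 cells did not pass the test at either threshold. Cavin1 had means of 179.1 ± 24.2 CPM without and 195.6 ± 67.2 CPM with the inhibitor (log2 fold change 0.06, 95% interval -0.40 to 0.53, adjusted p 0.830). Ehd2 was 104.6 ± 31.7 and 117.1 ± 49.3 CPM (log2 fold change 0.11, 95% interval -0.59 to 0.81, adjusted p 0.803). Cavin3 was 80.1 ± 15.6 and 63.4 ± 17.4 CPM (log2 fold change -0.37, 95% interval -0.81 to 0.07, adjusted p 0.156). A change of Ehd2 or Cavin1 inside these intervals was not detectable here, and their direction depended on single samples. Without replicate 4 the log2 fold changes were -0.16 for Cavin1 and -0.15 for Ehd2, without replicate 11 that of Ehd2 was -0.12, and without replicate 7 that of Cavin1 was -0.01.

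In 67NR cells, where the genes were chosen, CIX samples had 26.1 ± 1.09 CPM of Cavin2 against 53.3 ± 4.37 CPM with vehicle, 2.07-fold less (log2 fold change -1.05, SE 0.08). The lowest vehicle sample, at 47.1 CPM, was well above the highest CIX sample, at 27.0 CPM. For Cavin1 the means were 490.3 ± 29.8 and 424.8 ± 5.46 CPM (log2 fold change -0.22, SE 0.05), also without overlap. The other log2 fold changes were -0.14 for Cav1, -0.09 for Cav2, 0.07 for Cavin3 and -0.08 for Ehd2, with overlapping groups. Of all 11583 genes, 10.6% had CIX samples wholly below the vehicle samples, and 45 (0.389%) passed the adjusted p of 0.001 in either direction. Set side by side, the log2 fold change of Cavin2 with CIX was 0.81 in 4T1 and -1.05 in 67NR, and that of Cav1 was 1.34 and -0.14. Whether the response differed between the lines was not tested, because the 67NR values had chosen the genes.

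**Figure D2:**
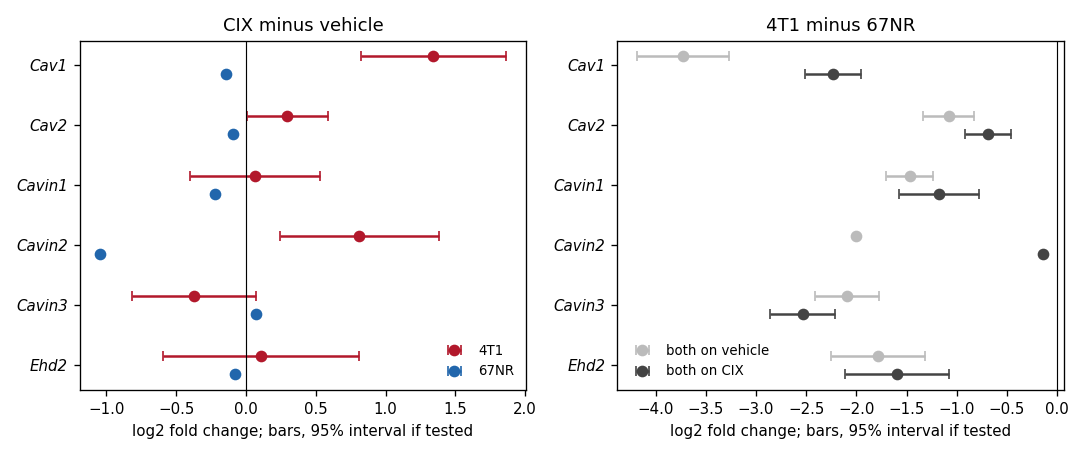
Log2 fold changes by limma-voom for CIX minus vehicle in each line (left) and for 4T1 minus 67NR under each treatment (right), with 95% intervals as bars where a test was made. Cavin2 has opposite signs in the lines on the left (0.81 and -1.05) and moves from -2.00 with vehicle to -0.14 with CIX on the right, while the other genes stay at or below -0.69 there.

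The second comparison set the vehicle-treated lines against each other. All 5 genes with a test were lower in 4T1 than in 67NR cells with vehicle and passed the threshold by limma-voom, where 19.6% of 11057 genes were called lower in 4T1. Cav1 was 13.2-fold lower, 16.4 ± 5.18 against 206.2 ± 18.6 CPM (log2 fold change -3.72, SE 0.20, adjusted p 6.23e-07). The change of its partner was smaller, with Cav2 at 42.5 ± 6.28 against 88.8 ± 4.70 CPM (log2 fold change -1.08, adjusted p 2.48e-05). Cavin3 was 4.28-fold lower (log2 fold change -2.10, adjusted p 1.90e-06), Ehd2 3.45-fold (log2 fold change -1.78, adjusted p 5.34e-05) and Cavin1 2.77-fold (log2 fold change -1.47, adjusted p 2.41e-06). In these 5 genes the 4T1 samples lay wholly below the 67NR samples, as in 30.3% of the genes compared. Cavin2, given without a test because its 67NR values entered the choice, was 4.00-fold lower in 4T1, also without overlap. In these bulk samples, fewer cells with a transcript and less of it per cell cannot be told apart.

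With CIX in both lines, 5 of the 5 tested genes again were lower in 4T1 and passed the threshold, with 15.9% of 10948 genes called lower. Cav1 was 4.70-fold lower (log2 fold change -2.23, SE 0.12, adjusted p 4.43e-07) and Cavin3 5.80-fold (log2 fold change -2.54, SE 0.15, adjusted p 5.27e-07). Ehd2 had a log2 fold change of -1.59 (adjusted p 0.000214), Cavin1 of -1.18 (adjusted p 0.000276) and Cav2 of -0.69 (adjusted p 0.000242). The 4T1 samples lay wholly below the 67NR samples in these 5 genes, as in 28.2% of all genes compared. Cavin2 was at 24.0 ± 4.61 CPM in 4T1 and 26.1 ± 1.09 CPM in 67NR, a log2 fold change of -0.14 with overlapping groups. The count of 5 fell to 3 without replicate 8 or without replicate 16 of 4T1 with CIX, when Cavin1 (adjusted p 0.00145 and 0.00153) and Ehd2 (0.00108 and 0.00105) missed the threshold, and Cavin1 also missed it without replicate 12 (0.00124). These line comparisons use the same samples as the CIX comparisons, so that the 4 sets of fold changes are not independent.

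Markers of other cell types moved with the line difference and, in part, with CIX. Of 10 epithelial markers, 9 were at a mean TPM (counts divided by transcript length and scaled to the same sum in each sample) of 1 or more in 4T1 with vehicle and 10 with CIX, against 1 and 0 in 67NR cells, and their summed level was 3217 to 3595 TPM in 4T1 and 0.821 to 5.35 TPM in 67NR. Of 10 mesenchymal markers, 4 reached that level in 4T1 in either treatment, and 9 with vehicle and 8 with CIX in 67NR. Their sum was 1523 to 1927 TPM in 4T1 with vehicle, 2840 to 3317 TPM in 4T1 with CIX, 5370 to 6699 TPM in 67NR with vehicle and 7698 to 8631 TPM in 67NR with CIX, most of it Vim, the vimentin gene. Among the mesenchymal markers, Fn1, the fibronectin gene, went the other way. Its mean was 539.9 TPM with vehicle and 665.0 with CIX in 4T1, against 389.4 and 523.1 in 67NR. The labels give both lines as mammary carcinoma, and in 67NR the epithelial markers were near 0, with Krt8 the highest at a mean of 1.13 TPM with vehicle. Summed endothelial markers were at 0.612 to 4.64 TPM and adipocyte markers at 0.231 to 2.28 TPM. Muscle markers summed to 0.211 to 0.888 TPM in 4T1 and 19.3 to 28.4 TPM in 67NR, nearly all from Des, the desmin gene. Leukocyte markers rested on Cd68, at a mean of 96.0 TPM in 4T1 with vehicle, 216.4 with CIX, 11.6 in 67NR with vehicle and 49.0 with CIX. The part of these marker differences in the coat gene levels was not tested.

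Compared per transcript length, on the TPM scale, the 6 coat genes summed to 297.0 ± 30.7 TPM in 4T1 with vehicle and 326.8 ± 65.8 TPM with CIX, and to 1081 ± 55.0 and 1007 ± 17.5 TPM in 67NR (SD, n = 4). The lines differed in the makeup of this sum as well as in its size. In 67NR cells with vehicle Cavin1 (295.3 ± 25.7 TPM), Cav1 (277.5 ± 18.1) and Cavin3 (254.1 ± 34.5) were the highest, followed by Ehd2 (156.6 ± 11.2), Cav2 (75.5 ± 2.57) and Cavin2 (21.8 ± 2.38). In 4T1 cells with vehicle the order was Cavin1 (114.5 ± 16.3 TPM), Cavin3 (64.0 ± 12.8), Ehd2 (50.8 ± 16.1), Cav2 (38.4 ± 5.16), Cav1 (23.4 ± 7.00) and Cavin2 (6.07 ± 1.89). Set side by side within each sample, Cavin1 was above Cavin3 in all 4 vehicle samples of 67NR, whereas Cavin1 was above Cav1, and Cav1 above Cavin3, in 3 of 4. In 4T1 with vehicle Cavin3 was above Ehd2 and Cav2 above Cav1 in 4 of 4 samples, and Ehd2 was above Cav2 in 3 of 4.

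Taken in each sample and then averaged, the share of Cav1 in the coat transcripts was 25.8% in 67NR and 8.11% in 4T1 cells with vehicle. With CIX its share was 17.4% ± 5.04 in 4T1 and 25.1% ± 1.17 in 67NR. The ratio of Cav1 to Cav2 was 0.602 ± 0.140 in 4T1 with vehicle and 1.23 ± 0.205 with CIX, ranges that did not overlap, against 3.68 ± 0.256 and 3.54 ± 0.109 in 67NR. Cavin1 stood at 5.54 ± 2.90 times Cav1 in 4T1 with vehicle and at 2.30 ± 1.27 times with CIX, whereas in 67NR the ratios were 1.07 ± 0.148 and 1.01 ± 0.0757.

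The cavins also changed in proportion to each other. Cavin3 was 0.555 ± 0.0324 of Cavin1 in 4T1 with vehicle and 0.412 ± 0.0528 with CIX, and 0.859 ± 0.0616 and 1.05 ± 0.0406 in 67NR, so that the CIX and vehicle ranges were apart in each line, lower with CIX in 4T1 and higher with CIX in 67NR. Cavin2 was 0.0738 ± 0.00215 of Cavin1 in 67NR with vehicle and 0.0417 ± 0.00152 with CIX. In 4T1 the same ratio was 0.0552 ± 0.0218 and 0.0926 ± 0.0372, with overlapping ranges. Relative to Cav1, Cavin2 went from 0.259 ± 0.0247 to 0.180 ± 0.0227 with CIX in 4T1, without overlap. There both genes were higher with CIX, Cavin2 1.75-fold and Cav1 2.54-fold. In 67NR the ratio went from 0.0792 ± 0.0130 to 0.0420 ± 0.00281, also without overlap. The 67NR ratios of Cavin2 to Cavin1 and Cav1 contain the fall of Cavin2 that chose the genes. These ratios are descriptions, and the TPM scale rests on the mean length of the annotated transcripts of each gene. That mean was shortest for Cav1, at 925.4 bases, so its rank, share and ratios depend on it. On the CPM scale, Cav1 in 67NR with vehicle (206.2) was below Cavin3 (337.8) and Ehd2 (344.3).

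**Figure D3:**
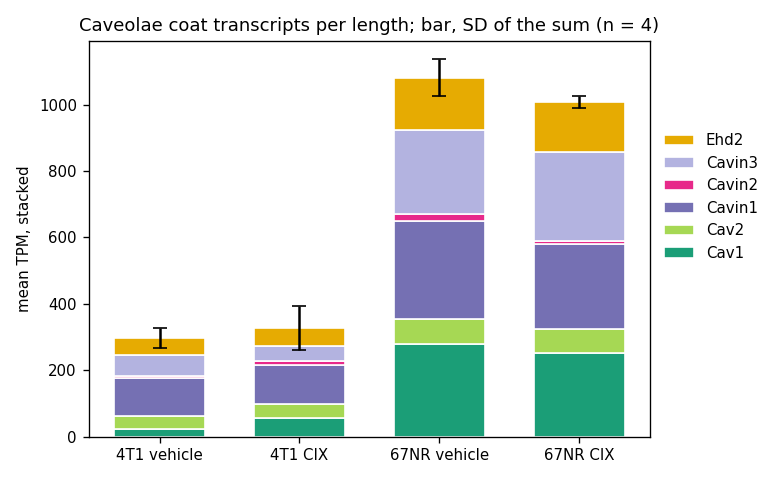
Mean TPM of the 6 coat genes stacked for each group (vertical axis from 0), with the SD of the sum as a bar (n = 4). The sums are 297.0 and 326.8 TPM in 4T1 and 1081 and 1007 TPM in 67NR. The share of Cav1, taken in each sample and then averaged, is 8.11%, 17.4%, 25.8% and 25.1%, which can differ slightly from the drawn segments.

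In replicates 3, 4, 11 and 12 of 4T1, Cav1 and Cavin2 deviated from their group means in the direction opposite to Cavin1, Cavin3 and Ehd2, which was not so in replicates 7, 8, 15 and 16. In replicate 3 of the vehicle group, log2(CPM + 0.5) was below the group mean by 0.66 for Cav1 and by 0.72 for Cavin2 (deviations of -0.663 and -0.718), and above it for Cavin1 (0.25), Cavin3 (0.35) and Ehd2 (0.46). Replicate 4 of the CIX group had the same pattern, with -0.34 for Cav1 and -0.40 for Cavin2 against 0.65 for Cavin1, 0.53 for Cavin3 and 0.76 for Ehd2. Replicates 11 and 12 were at the other end for Ehd2, with the lowest level of their group (62.6 and 70.7 CPM), and had the highest Cavin2. The labels do not say whether samples with successive numbers shared a culture or a day. In each of the 4 pairs of successive numbers in 4T1 (3 and 4, 7 and 8, 11 and 12, 15 and 16), Cav1, Cav2 and Cavin2 were higher and Cavin3 was lower in the CIX sample, which is a description, since the pairing is not labelled. The share of all genes with the same direction in all 4 pairs is not given here. By limma-voom, 51.1% of all genes had an unadjusted p below 0.05 in this comparison.

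Over the 8 samples of 4T1, after removal of the group means, Pearson's r was 0.92 between Cav1 and Cavin2 and 0.91 between Cavin1 and Cavin3. It was -0.79 between Cav1 and Cavin3 and -0.86 between Cavin2 and Ehd2. In 67NR, these pairs in the same order had r of -0.39, 0.73, -0.71 and 0.47. Between Cavin1 and Cavin2, r was 0.90 in 67NR and -0.70 in 4T1. In the same order of lines, it was 0.76 and -0.76 between Cavin2 and Cavin3, and 0.79 and 0.68 between Cav1 and Cav2. The pairs named that include Cavin2 had opposite signs in the lines, and the others named had the same sign. These values describe 8 samples each that share their scaling factors within a library. The pairs named are a selection, and no background of r over other gene pairs is given here. Without both replicates 3 and 4, an alternative added after the values were seen, the log2 fold change with CIX in 4T1 was 1.25 for Cav1 (adjusted p 0.00107) and 0.71 for Cavin2 (adjusted p 0.00907), and -0.41 for Cavin3 (adjusted p 0.0200).

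**Figure D4:**
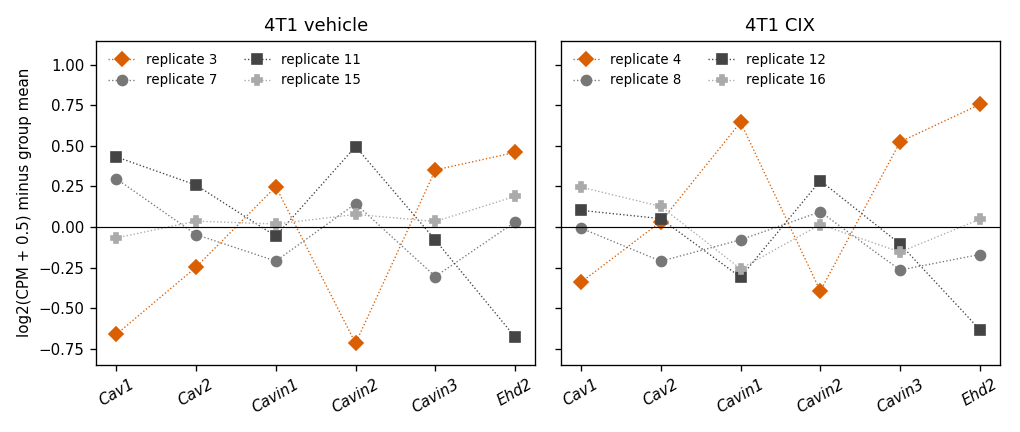
Deviation of each 4T1 sample from its group mean in log2(CPM + 0.5) (vertical axis) for the 6 genes, vehicle on the left and CIX on the right, with dotted lines joining the values of a sample. Replicates 3 and 4 (orange) lie lowest for Cav1 and Cavin2 and highest for Cavin1, Cavin3 and Ehd2 in their groups.

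Proteins that work with the coat were taken from a list of 18 accessory genes, of which 11 were tested in 4T1 cells. With CIX, 3 of them were higher in 4T1 by limma-voom (622 of all genes, or 5.33%, were called higher) and 0 lower, with a median log2 fold change of 0.44 against -0.01 over all genes. Dnm1, a dynamin GTPase that severs membrane necks, went from 4.41 ± 0.838 to 16.2 ± 4.89 CPM (log2 fold change 1.82, adjusted p 0.000728). Pacsin3, an F-BAR protein that bends membranes, went from 42.2 ± 10.0 to 88.6 ± 5.00 CPM (1.08, adjusted p 0.000583), and Fyn, a kinase of the Src family that phosphorylates caveolin-1, from 11.9 ± 1.62 to 24.4 ± 0.851 CPM (1.03, adjusted p 0.000345). In 67NR cells 0 of 12 passed by limma-voom, where 0.389% of all genes did, and 0 by edgeR. Of the 12, 7 had an unadjusted p below 0.05 by limma-voom (32.8% of all genes), and DESeq2 called 2, Dnm1 and Fyn (9.02% of all genes). Of the untested genes, Cav3, the muscle caveolin, was at 0 in all 16 samples, which allows at most 0.138 CPM in the shallowest, and Cavin4, the muscle cavin, had group means of at most 0.570 CPM.

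The flotillins, which build membrane domains of their own without caveolins, were higher with CIX in 1 of 2 cases in 4T1, where 5.33% of all genes were called higher by limma-voom, namely Flot1 (19.3 ± 3.21 to 71.8 ± 13.2 CPM, log2 fold change 1.87, adjusted p 0.000114). Of 5 genes for the turnover of caveolin-1 through the ATPase Vcp, 2 were higher against the same 5.33% of all genes, Ankrd13d (1.74 ± 0.977 to 8.31 ± 1.61 CPM, log2 fold change 2.35, adjusted p 0.000702) and Ankrd13b (29.2 ± 2.91 to 63.8 ± 9.76 CPM, 1.10, adjusted p 0.000329), both of the ankyrin repeat family that recognizes ubiquitylated caveolin-1, of which edgeR did not call Ankrd13d (adjusted p 0.00126). Of 9 tested genes for the supply of caveolar lipids, 1 was higher against that share, Ptdss2, a phosphatidylserine synthase (6.19 ± 1.49 to 32.7 ± 3.56 CPM, log2 fold change 2.41, adjusted p 6.18e-05). Of 11 genes of the clathrin coat, the other main endocytic coat, 0 passed by limma-voom in 4T1, where 9.28% of all genes did, and 0 by edgeR. Their median log2 fold change was 0.23. Of the 11, 5 had an unadjusted p below 0.05 by limma-voom (51.1% of all genes), and DESeq2 called 3 (26.5% of all genes). In 67NR cells limma-voom called 0 of the 40 genes tested in the 5 lists, where it called 0.389% of all genes, and edgeR called 0. Of the 40, 21 had an unadjusted p below 0.05 by limma-voom and 6 were called by DESeq2, against 32.8% and 9.02% of all genes. The 7 genes called in 4T1 were higher in each fit that left out 1 sample, but between 2 (without replicate 7 or replicate 8) and 5 (without replicate 4) of them passed 0.001, and Flot1 and Ptdss2 passed in all 8 fits.

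**Figure D5:**
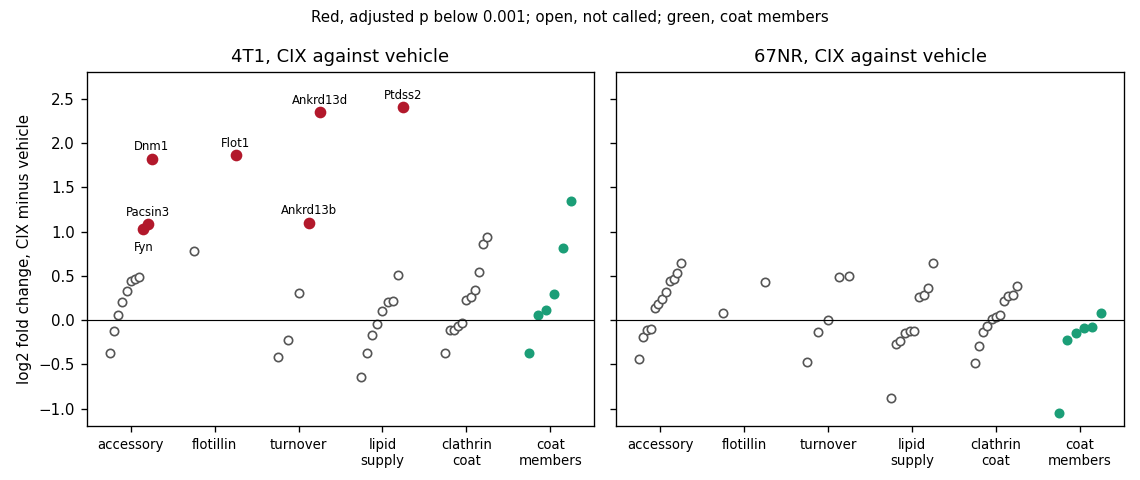
Log2 fold change with CIX (vertical axis) of each tested gene of the 5 lists and of the 6 coat genes in 4T1 (left) and 67NR (right), with red points for genes at an adjusted p below 0.001 by limma-voom, open points for those not called and green points for the coat genes. The 7 red points are all in 4T1 and above 1.

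Between the lines with vehicle these lists held genes on both sides, while 20.4% of all genes tested were called higher and 19.6% lower in 4T1. Of the 11 accessory genes tested, 4 were higher and 3 lower in 4T1, among them Ehd4, a relative of Ehd2, at 212.5 ± 60.0 CPM in 4T1 against 28.9 ± 2.91 in 67NR (log2 fold change 2.83, adjusted p 2.22e-06). Dnm1 (-2.75, adjusted p 4.91e-07) and Fyn (-2.17, adjusted p 3.37e-06) were lower. Both flotillins were lower, Flot1 (-2.26, adjusted p 5.80e-07) and Flot2 (-1.08, adjusted p 0.000625), as was 1 turnover gene, Ankrd13b (-2.06, adjusted p 4.65e-07). Among the lipid supply genes 2 were higher and 3 lower, with Ptdss2 (-2.38), Sgms1 (-1.31) and Sgms2 (-1.07) on the lower side and Npc2 (1.28) on the higher. The clathrin coat genes had 3 higher and 3 lower, led by Ap2s1 (-2.08), Epn1 (1.60) and Ap2a2 (-1.17).

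With CIX in both lines, 18.3% of all genes were called higher and 15.9% lower in 4T1. Of the 11 accessory genes tested, 5 were higher in 4T1 and 2 lower, with log2 fold changes of 3.16 for Ehd4, -1.77 for Fyn and -1.37 for Dnm1. Flot1 was lower (-0.82, adjusted p 0.000705). In the turnover list Ankrd13d (1.95) and Ankrd13a (1.24) were higher and Ankrd13b (-1.45) lower. The clathrin coat had 2 genes on each side, and the lipid supply list had 1 higher and 2 lower. Ptdss2, which differed between the lines with vehicle, was not called here. Abca1, the cholesterol exporter, had 49.7 ± 1.26 CPM in 67NR with vehicle and 0.892 ± 0.267 CPM in 4T1, and was left out of the line comparisons by the filter on low TPM, as was Nos3, the endothelial nitric oxide synthase that binds caveolin-1 (3.82 and 0.811 CPM).

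The genes whose profile over the 16 samples was most like that of Cav1 were Pik3r5 (Pearson's r = 0.991 in log2(CPM + 0.5)), Znrd1as (0.989), Atf5 (0.986), Zfp111 (0.986) and Sparc (0.985), from 12623 genes compared. Like Cav1, they were low in 4T1 with vehicle, higher in 4T1 with CIX and highest in 67NR. Sparc, a secreted matrix protein gene, had means of 107.2, 222.8, 1503 and 1211 CPM in 4T1 with vehicle, 4T1 with CIX, 67NR with vehicle and 67NR with CIX, and Atf5, a transcription factor of the stress response, had 12.0, 32.2, 303.7 and 288.0 CPM. Nearest to Cavin2 were Jade1 (r = 0.947), Aunip (0.945), Cenps (0.938), Masp1 (0.936) and Tns2 (0.936). Jade1, which encodes a subunit of a histone acetyltransferase complex, had means of 37.9, 60.5, 123.1 and 80.9 CPM in the same order, and Tns2, a focal adhesion gene, 80.0, 140.7, 234.1 and 174.2 CPM. The 16 points of each correlation fall into groups by line, so that r mostly reflects the distance between the group means.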

How the data were processed

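Poly(A) RNA of 4T1 and 67NR cells was sequenced on an Illumina NextSeq. Reads were assigned by the authors with salmon (version 0.12 per the labels) to the Ensembl GRCm38 transcripts. The deposited table holds their tximport sums, which are estimated counts for 33072 genes and are not normalized. The submitters' processing notes name GRCh38, while the identifiers are mouse Ensembl genes. Samples were grouped by the labelled cell line and treatment, and all 16 columns were mapped. Replicates of a group differed by a chi-square of at least 16.7 per gene. Total estimated counts per sample were 21715700 to 29450629.

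Estimated counts were rounded. TPM was approximated with the mean transcript length in GENCODE M21, to which 32832 genes of the table were matched. A gene was left out where more than 3 of the 8 samples compared had a TPM below 1, so that genes expressed in 1 line only leave the line comparisons. The main test, after the methods of the study, was limma-voom with TMM scaling (limma 3.58.1, edgeR 4.0.16, R 4.3.3) on the 8 samples of each comparison, with Benjamini-Hochberg adjustment over all genes tested and a threshold of 0.001, and was tested on simulated data. CPM was scaled over 16 samples. Alternatives were edgeR's quasi-likelihood test, DESeq2 1.42.0, other scalings and filters, a common fit, sample weights, a threshold of 0.05, limma on log2(TPM + 1) and log2(TPM + 0.1), leaving out samples, and a block of successive title numbers. The coat genes, the lists and the markers were chosen with earlier results of these data known. Named were the 6 coat genes, up to 4 called genes per list and comparison with the largest change, and the 5 genes nearest to Cav1 and to Cavin2 by Pearson's r, and other genes named were chosen after their values were seen. The values of 1 gene of the accessory list are not reported here. The promoter sequences are from RefSeq (GRCm38.p6).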

Additional observations from a re-analysis of the deposited data

Results flagged for a closer look

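Cavin3 in replicate 4 of 4T1 with CIX was at 89.2 CPM, far from the other samples of its group, which held 51.4 to 57.5 CPM. Of 24 groups of 4 samples examined, this was the only one in which a sample stood apart so far, and chance marks about 5% of such groups. In the same sample Cavin1 (295.0 CPM) and Ehd2 (186.1 CPM) were also the highest of their group and Cav1 (31.6 CPM) and Cavin2 (17.9 CPM) the lowest. Without this sample the adjusted p of Cavin3 for CIX against vehicle in 4T1 by limma-voom was 0.0194, which still missed 0.001.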

How the results depend on the processing

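The number of coat genes called in 4T1 with CIX was 0 by limma-voom and by 7 of 11 alternatives, but 1 (Cav1) by DESeq2, 1 in a common fit of 16 samples, 1 with sample quality weights and 2 (Cav1 and Cavin2) at a threshold of 0.05. Log2 fold changes near 0 in 4T1 turned sign, Ehd2 to -0.0508 with sample weights and Cavin1 to -0.00832 on log2(TPM + 1), to -0.00869 on log2(TPM + 0.1) and to -0.0498 without both replicates 3 and 4, and the cause was not tested. With each sample left out in turn, Cavin1 ranged from -0.16 to 0.17 and Ehd2 from -0.15 to 0.33, Cav1 from 1.11 to 1.49 and Cavin2 from 0.56 to 0.98. The 5 line differences with vehicle were called in all alternatives and leave-one-out fits. Those with CIX were called in all alternatives but the block below, and in 3 to 5 genes with a sample left out, which also takes residual degrees of freedom. The description of Cavin2 in 67NR ranged from -1.07 to -0.97 over alternatives and from -1.09 to -1.01 with a sample left out. Counts over all genes moved more. In 4T1 they were 1084, against 3096 by DESeq2, 2723 in the common fit, 2523 with weights, 4984 at 0.05 and 286 to 1046 with a sample left out. In 67NR they were 45, against 1041, 145, 247 and 2056 in the same order, 27 on log2(TPM + 1) and 0 to 69 with a sample left out. Between the lines they were 4422 with vehicle (7456 at 0.05) and 3746 with CIX (5751 without a filter, 5946 in the common fit, 6991 at 0.05). The median of all genes moved by less than 0.1 under other scalings. The groups share no replicate number, and the labels do not tie the samples of successive title numbers together. A replicate block of 4 successive title numbers, added after the values were seen, called 1 coat gene in 4T1 with CIX, Cav1 (adjusted p 0.000928), whereas Cavin2 (0.00282) and Cavin3 (0.0153) still missed 0.001. Across genes, the deviations of the vehicle and CIX samples of a block correlated with r of 0.411, 0.0506, 0.322 and 0.206 in 4T1 and of -0.0504 to 0.101 in 67NR. With this block 5 line differences were called with vehicle and 4 with CIX, where Cav2 missed the threshold (adjusted p 0.00141), and the counts over all genes were 0 by limma-voom in 67NR (3914 with an unadjusted p below 0.05) and 2921 between the vehicle groups.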
